A study of Mus musculus with 12 samples.

Results

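Mouse induced pluripotent stem cells (iPSC) were compared with embryonic stem cells (ESC) within the cells of high mitochondrial membrane potential. The comparison took the 3 iPSC high arrays against the 3 ESC high arrays, 6 of the 12 arrays of the study, and used all 25206 probe sets. The other 6 arrays, of the low-potential cells, entered as a second iPSC against ESC comparison. All 12 arrays set the spread that was used in both comparisons. Genes of chromosomes 5 and 12 were kept apart from those of the other chromosomes throughout.

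All cells of the study were female and of C57BL/6 background, and all were grown without serum or feeders on gelatin in 2iLIF medium, which holds them in the naive pluripotent state. They were stained with tetramethylrhodamine methyl ester (TMRM), a cationic dye that collects in mitochondria with the potential across their inner membrane, and sorted by flow cytometry into low and high fractions. ESC high and iPSC high therefore shared strain, sex, medium, dye and the name of the sorted fraction, and differed in the origin of the cells. ESC derive from the embryo, and iPSC from a somatic cell returned to pluripotency. Line names, the reprogramming method, the somatic source and the number of clones were not stated in any source used here, and differences between lines and between cell types cannot be told apart. The arrays of a group are numbered 2, 3 and 4, and nothing in the labels says that they came from separate cultures, so p-values measure only how far these samples spread, and that spread may be technical.

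Pluripotent cells are held by a small network of transcription factors, among them Oct4 (Pou5f1), Sox2 and Nanog, which reprogramming switches back on while the somatic programme is shut down and DNA methylation is reset. Imprinted domains and X-linked genes are commonly examined in such comparisons because they carry parental or dosage marks that reprogramming can disturb. The mitochondrial potential is built by the respiratory chain from electrons that the citric acid cycle supplies, and ATP synthase spends it.

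Values are log2 expression made by the authors with RMA, which brings the arrays to a common distribution and joins the probes of a probe set into 1 value. A difference of 1 is a doubling on the array scale. Differences are iPSC high minus ESC high with the standard error (SE) of the fit, and a gene is called where the adjusted p of limma, corrected over all 25206 probe sets, was under 0.05. The median of an array lay between 3.54 and 3.61 in the high-potential arrays, and arrays of the same group correlated at 0.991 to 0.994 over all probe sets, against 0.990 to 0.993 between groups. Values carry no detection call, so no level could be set against background.

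The core pluripotency factors lay above the array median in both groups and none was called. Nanog was at 10.49 ± 0.06 (SD, n = 3) in ESC high and 10.55 ± 0.01 in iPSC high, Pou5f1 at 6.02 ± 0.14 and 5.93 ± 0.01, and Sox2 at 8.74 ± 0.14 and 8.93 ± 0.07. Their differences were 0.07 ± 0.08, -0.09 ± 0.11 and 0.19 ± 0.10, with adjusted p of 0.876, 0.877 and 0.599. The calls gathered by chromosome: genes of chromosomes 5 and 12 were, as a body, lower in iPSC high, and 24 of the 29 probe sets called lower lay there. Another 1 of the 29 had no gene symbol and so no chromosome.

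In all, 47 probe sets were called, 0.186% of those tested. iPSC high had 18 higher (0.0714% of all) and 29 lower (0.115%). Chromosome 5 had 1 called higher and 12 lower among 1311 probe sets, and chromosome 12 had 1 higher and 12 lower among 887. The remaining 23008 had 16 higher and 5 lower. They include 2021 without a gene symbol and so without a chromosome, 1 of them called lower. Counts of calls outside both chromosomes include these 2021. The called share was thus 0.992% on chromosome 5, 1.47% on chromosome 12 and 0.0913% over the remainder. Of the 47, 13 differed by at least 1 on the log2 scale, and 2399 probe sets had an unadjusted p under 0.05. With each array centred on the genes outside both chromosomes, 18 were higher and 53 lower, 25.4% of calls higher in place of 38.3%. The calls rest on the spread estimated from all 12 arrays. With the 6 high-potential arrays alone, 0 probe sets were called higher and 1 lower, Rad9b of chromosome 5. Leaving out ESC high replicate 2, 3 or 4 left 0, 0 and 3 higher and 2, 1 and 2 lower. Leaving out iPSC high replicate 2, 3 or 4 left 1, 0 and 0 higher and 1, 2 and 1 lower. Among low-potential arrays, leaving out iPSC low replicate 4 left 8 higher and 15 lower, and leaving out ESC low replicate 3 left 15 higher and 17 lower. Rad9b was called under every one of the 20 alternatives that were run. The direction of the named calls was not tested by them. Many left the differences unchanged, and called genes were named only where the arrays of the groups did not overlap.

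The start regions of 3 genes are shown because they head their groups in the results: Rad9b, with the largest fall on chromosome 5 among genes named by the rule, Dnajc5g, the single gene called higher on that chromosome, and Pnma5, with the largest rise outside both chromosomes. Each run is 300 bases of RefSeq sequence, assembly GRCm38.p6, from 250 bases before the gene's start to 50 after it, written 5′ to 3′ on the strand of the gene. Capitals mark CG dinucleotides, the sites at which mammalian DNA is methylated. Rad9b lies on the minus strand at chr5:122354156-122354455, Dnajc5g on the plus strand at chr5:31108069-31108368, and Pnma5 on the minus strand at chrX:73037054-73037353.
Rad9b: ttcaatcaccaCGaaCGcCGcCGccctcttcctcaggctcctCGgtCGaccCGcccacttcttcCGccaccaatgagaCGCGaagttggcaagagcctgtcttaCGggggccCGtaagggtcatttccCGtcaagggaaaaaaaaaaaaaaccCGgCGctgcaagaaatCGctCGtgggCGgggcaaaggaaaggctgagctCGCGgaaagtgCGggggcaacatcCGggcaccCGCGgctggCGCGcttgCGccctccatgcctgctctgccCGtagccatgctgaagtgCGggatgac
Dnajc5g: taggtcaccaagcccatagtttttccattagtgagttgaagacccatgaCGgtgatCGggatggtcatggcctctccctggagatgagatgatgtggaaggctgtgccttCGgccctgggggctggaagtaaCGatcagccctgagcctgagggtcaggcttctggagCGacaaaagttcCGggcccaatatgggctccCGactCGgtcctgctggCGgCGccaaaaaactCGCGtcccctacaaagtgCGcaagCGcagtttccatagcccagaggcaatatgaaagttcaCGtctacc
Pnma5: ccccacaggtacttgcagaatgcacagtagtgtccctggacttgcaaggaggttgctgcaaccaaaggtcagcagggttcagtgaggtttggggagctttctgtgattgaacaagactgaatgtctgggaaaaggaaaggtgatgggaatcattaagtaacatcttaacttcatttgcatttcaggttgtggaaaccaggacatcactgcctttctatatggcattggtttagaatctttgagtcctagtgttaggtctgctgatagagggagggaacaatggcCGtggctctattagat
The window of Rad9b holds 29 CG, that of Dnajc5g 15 and that of Pnma5 1, against a median of 13 over the 17452 measured genes that have such a window. Windows were found for 33 of the 47 called probe sets. The 18 genes called lower on chromosomes 5 and 12 had a median of 20 CG, from 4 to 32, and 1 of them (5.56%) had under 5 CG, as did 27.7% of all measured genes. The 11 genes called higher outside both chromosomes had a median of 5 CG, from 0 to 28, and 5 of them (45.5%) had under 5. The 3 genes with a window that were called lower outside both chromosomes had a median of 2 CG, from 0 to 29, and 2 of them had under 5. The measured genes used as the reference were not matched to the called genes in level or chromosome. For a gene with several windows only the first was counted. Methylation itself was not measured here, and these counts describe sequence only.

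On chromosome 5 the shift ran across the chromosome and was small for the median gene. Among its 752 genes with a mean level above the median of all probe sets, the median difference was -0.25, with quartiles of -0.37 and -0.10, and 644 (85.6%) were lower in iPSC high. That median equals 84.2% of the ESC level on the array scale. The 3 iPSC arrays lay entirely below the 3 ESC arrays for 362 of these genes (48.1%), and entirely above for 16 (2.13%), where the shares over such genes of all chromosomes were 11.6% and 7.8%.

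On chromosome 12 the median difference over 475 such genes was -0.29, with quartiles of -0.40 and -0.15, and 420 (88.4%) were lower in iPSC high. This median equals 81.7% of the ESC level. The iPSC arrays lay entirely below the ESC arrays for 243 genes (51.2%) and entirely above for 9 (1.89%). The 18 other chromosomes had medians between -0.01 and 0.02, and on them 42.8% to 53.8% of genes were below 0. The X chromosome was among these, at 0.01 over 368 genes. Chromosomes 5 and 12 were taken apart because earlier results of these data showed them to differ, so these medians are a description without a test. The arrays measure RNA, and DNA of these cells was not analysed here.

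**Figure D1:**
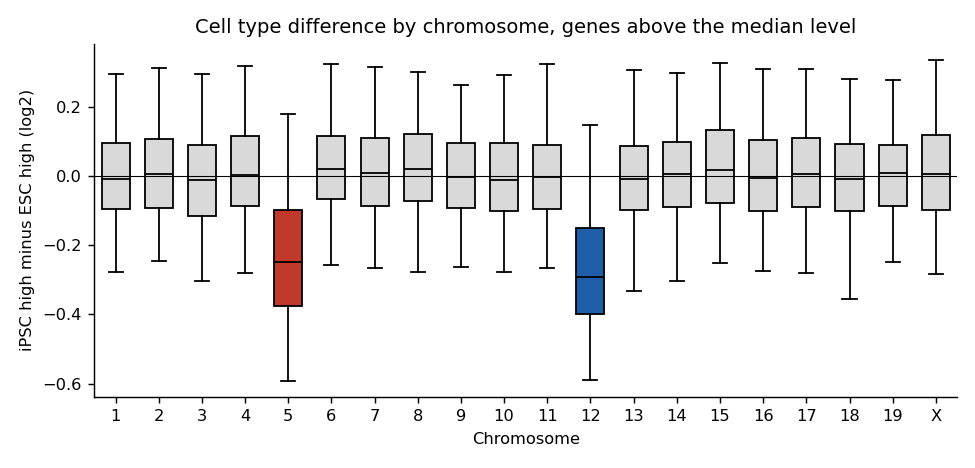
Difference between iPSC high and ESC high (log2 expression, vertical axis) of genes above the median level, by chromosome (horizontal axis). Boxes span the quartiles, the line is the median and whiskers reach the 5th and 95th percentiles; chromosomes 5 and 12 have medians of -0.25 and -0.29 while the others lie between -0.01 and 0.02.

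The shift was seen in every array. Relative to each gene's mean over the 6 high-potential arrays, the median gene of chromosome 5 stood at 0.08, 0.07 and 0.23 in ESC high replicates 2, 3 and 4, and at -0.09, -0.13 and -0.13 in the iPSC high arrays. ESC high replicate 4 stood apart on this chromosome, and without it the chromosome 5 median was -0.19 in place of -0.25. On chromosome 12 the corresponding values were 0.16, 0.14 and 0.14 in ESC high and -0.10, -0.14 and -0.18 in iPSC high, and ESC replicate 4 was not apart there. On the other chromosomes the array medians lay between -0.04 and 0.04. Low-potential cells, which are separate arrays and were set against their own mean over 6, gave 0.09, 0.04 and 0.21 in ESC low on chromosome 5, where replicate 4 was again the highest, and -0.13, -0.12 and -0.11 in iPSC low. The iPSC minus ESC medians in low-potential cells were -0.23 on chromosome 5 and -0.29 on chromosome 12. In both fractions, 263 genes of chromosome 5 (35.0%) and 197 of chromosome 12 (41.5%) had all iPSC arrays below all ESC arrays, where the share over all chromosomes was 5.24%.

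**Figure D2:**
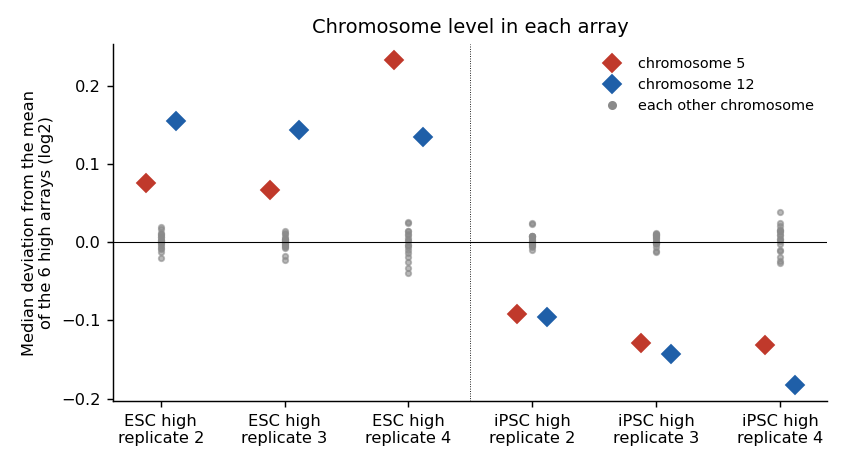
Median deviation of the genes of a chromosome from each gene's mean over the 6 high-potential arrays (log2, vertical axis), by array (horizontal axis), with diamonds for chromosomes 5 and 12 and 1 grey point for each other chromosome. The ESC arrays lie above 0 and the iPSC arrays below 0 on chromosomes 5 and 12, ESC replicate 4 is the highest on chromosome 5, and the other chromosomes stay between -0.04 and 0.04.

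Neither chromosome had the shift in a single stretch. When the genes of chromosome 5 were divided into 10 runs of 75 or 76 neighbours in gene order, the medians ranged from -0.32 in run 4 to -0.22 in runs 3 and 7. On chromosome 12, runs of 47 or 48 genes ranged from -0.36 in run 3 to -0.18 in run 10, the run at the far end, where 70.2% of genes were below 0. All 20 runs were below 0.

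**Figure D3:**
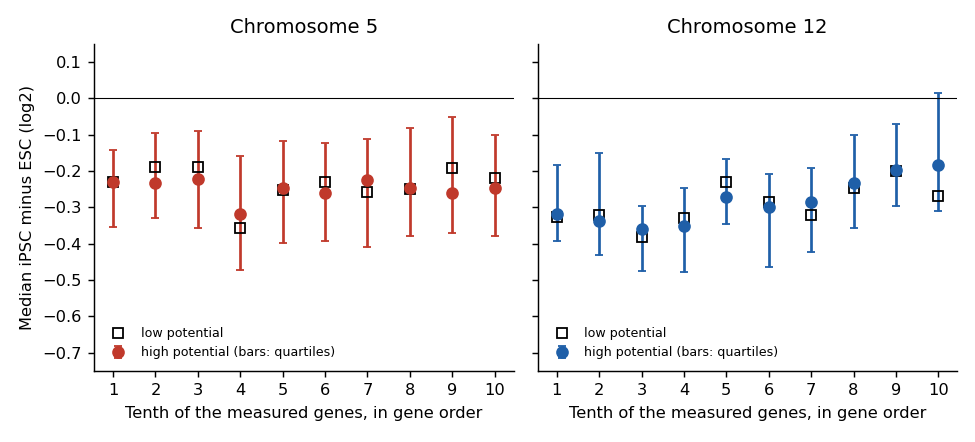
Median difference between iPSC high and ESC high (log2, vertical axis) in 10 consecutive runs of genes along chromosomes 5 and 12 (horizontal axis, run number in gene order), as filled points with quartile bars, and in low-potential cells as open squares. All filled points lie below 0, and run 10 of chromosome 12 is the nearest to 0 at -0.18.

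The size of the shift varied with the level of the gene. Genes above the median level were divided into 4 classes of level, and from the dimmest class to the brightest the chromosome 5 medians were -0.10, -0.25, -0.28 and -0.27, and 61.4%, 85.3%, 93.2% and 98.1% of genes were below 0. On chromosome 12 they were -0.13, -0.26, -0.34 and -0.31, with 72.2%, 87.4%, 94.9% and 96.7% below 0. Genes under the median level had medians of 0.00 on chromosome 5 (559 genes), 0.01 on chromosome 12 (412) and 0.04 elsewhere (10374).

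Single genes of chromosome 5 fell by far more than its median. Rad9b, a relative of the Rad9 subunit of the DNA damage checkpoint clamp, was at 5.43, 5.67 and 5.40 in ESC high replicates 2 to 4 and at 3.77, 3.73 and 3.48 in iPSC high. The groups were well separated, and Rad9b fell by 1.84 ± 0.16 (SE, adjusted p = 0.00118). In low-potential cells it fell by 2.27 (adjusted p = 0.000101). Hsd17b11, a dehydrogenase of lipid droplets, was at 5.46, 5.51 and 5.94 in ESC high and at 4.23, 4.32 and 4.41 in iPSC high. It was lower in all 3 iPSC arrays, by 1.32 ± 0.18 (adjusted p = 0.0256), and by 1.30 in low-potential cells.

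Coq2 attaches the isoprenoid tail in the synthesis of coenzyme Q, the electron carrier of the respiratory chain. It was at 6.36, 6.06 and 6.28 in ESC high and at 4.90, 5.55 and 4.77 in iPSC high. The groups did not overlap, iPSC high replicate 3 was the nearest to ESC, and the fall was 1.17 on the log2 scale with an SE of 0.19 (difference -1.17, adjusted p = 0.0356). Gusb, the lysosomal beta-glucuronidase, differed by -1.12 ± 0.18 (adjusted p = 0.0349). Tpst1, which sulfates tyrosines of secreted proteins, differed by -1.06 ± 0.16 (adjusted p = 0.0325). Nudt1, which clears oxidised nucleotides, differed by -0.95 ± 0.16 (adjusted p = 0.0357). The remaining called falls on this chromosome, named after their values were seen, were Uspl1 (-0.81), Guf1 (-0.73), Ift81 (-0.66), Zfp512 (-0.56), Ccz1 (-0.53) and the clone-named 2610524H06Rik (-1.88). The mean level of 2610524H06Rik over the 12 arrays was 3.43, under the median of all probe sets. Guf1 is a GTPase of mitochondrial translation and Ift81 a part of the transport machinery of cilia. All 12 were lower in iPSC in low-potential cells too. Without iPSC low replicate 4 the count of called falls on chromosome 5 was 7 in place of 12, and without any 1 of the 6 high-potential arrays it was 1 or 2.

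Dnajc5g went against its chromosome. This J-domain protein of the cysteine string family was at 3.37, 3.21 and 3.93 in ESC high and at 4.99, 5.12 and 5.24 in iPSC high. Every iPSC array was higher, by 1.61 ± 0.26 on average (adjusted p = 0.0349), and by 2.34 in low-potential cells.

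On chromosome 12 the called falls were smaller. Nrp differed by -1.07 ± 0.16 (adjusted p = 0.0339), from 5.17, 4.94 and 5.39 in ESC high to 4.21, 4.34 and 3.75 in iPSC high, and by -0.46 in low-potential cells. Wdr35, a component of transport along cilia, differed by -0.79 ± 0.12 (adjusted p = 0.0325). Atxn7l1 differed by -0.77 ± 0.13 (adjusted p = 0.0357). Sptssa, a small subunit of the enzyme that starts sphingolipid synthesis, differed by -0.77 ± 0.14 (adjusted p = 0.0473). Pigh, of the first step of the membrane anchor glycosylphosphatidylinositol, differed by -0.67 ± 0.10 (adjusted p = 0.0339).

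Jkamp, a membrane protein that binds the stress kinase JNK, showed the tightest arrays of the chromosome 12 falls named by the rule. It was at 8.03, 7.99 and 7.96 in ESC high and at 7.47, 7.33 and 7.35 in iPSC high. Each group held together closely and lay clear of the other, with a difference of -0.61 ± 0.08 (adjusted p = 0.0256), which was -0.58 in low-potential cells. The other called falls, named after their values were seen, lay between -0.60 and -0.50: Mbip, Ptgr2, Arf6, Zfp410, Golga5 and Glrx5. Arf6 is a GTPase of membrane traffic and Glrx5 a mitochondrial glutaredoxin of iron-sulfur cluster assembly. Without any 1 of the 6 high-potential arrays 0 falls were called on this chromosome, and leaving out a low-potential array gave counts between 4 (iPSC low replicate 4) and 11 in place of 12. The count was 7 and 5 when ESC low replicates 2 and 3 were left out, and 7 and 6 for iPSC low replicates 2 and 3.

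Smoc1, a secreted matrix protein that modulates BMP signalling, was the called riser of chromosome 12. It was at 6.21, 6.08 and 6.04 in ESC high and at 7.08, 6.65 and 6.97 in iPSC high. No arrays overlapped, the rise was 0.79 ± 0.13 (adjusted p = 0.0349), and low-potential cells gave 0.96.

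**Figure D4:**
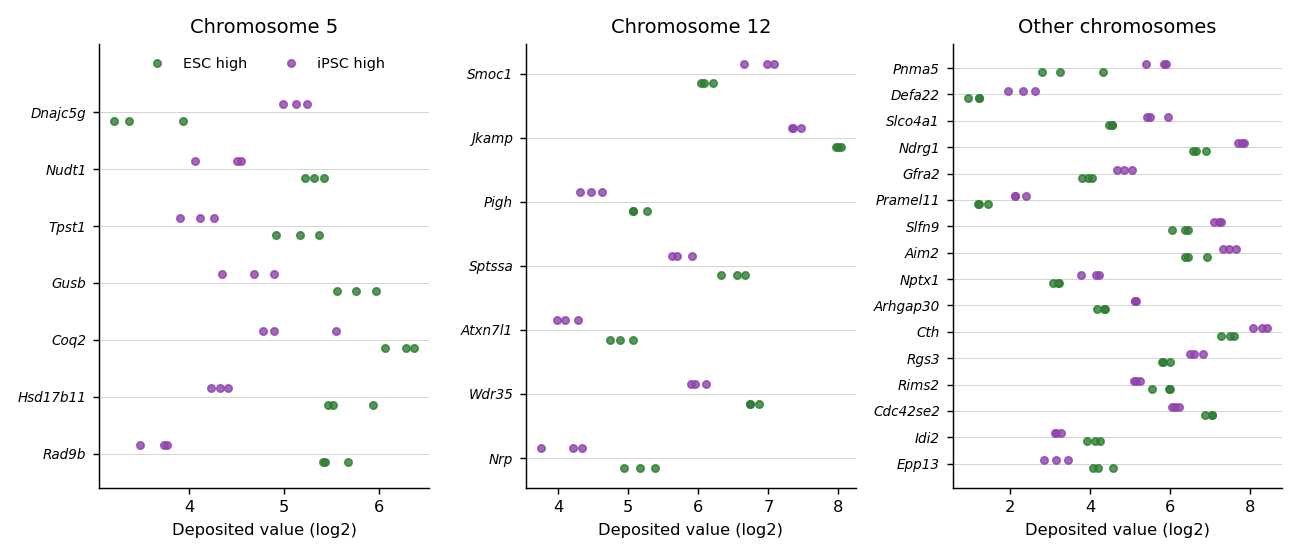
Deposited log2 value (horizontal axis) of the genes taken by the naming rule (vertical axis) in each of the 6 high-potential arrays, 1 point per array, ESC high in green and iPSC high in purple, with chromosomes 5 and 12 and the other chromosomes in separate panels. Rad9b is at 5.40 or more in ESC high and at 3.77 or less in iPSC high, and Dnajc5g and Pnma5 move the other way. Groups that do not overlap were a condition of the naming rule.

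Outside both chromosomes the balance was the other way, with 16 probe sets called higher and 5 lower. Genes placed on another chromosome had 16 higher and 4 lower. The size of this imbalance depended on the scaling. It shrank to 15 higher and 12 lower when arrays were centred on the genes outside both chromosomes. Under median centring the counts were 14 and 10, and under repeated quantile normalization 21 and 7. The largest rise was that of Pnma5, an X-linked gene of the paraneoplastic antigen family, at 3.25, 2.79 and 4.32 in ESC high and at 5.84, 5.39 and 5.90 in iPSC high. The ESC arrays were spread widely, all lay below iPSC, and the rise was 2.25 ± 0.30 (adjusted p = 0.0256). Low-potential cells gave 2.26.

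Aim2, a sensor of DNA in the cytosol, rose by 0.90 ± 0.14 (adjusted p = 0.0343) and differed by 0.91 in low-potential cells. Slfn9, of the Schlafen family, rose by 0.91 ± 0.12 (adjusted p = 0.0256), and low-potential cells gave 1.10. Gfra2, the co-receptor for neurturin, rose by 0.93 ± 0.15 (adjusted p = 0.035). Rgs3, which switches off G proteins, rose by 0.77 ± 0.13 (adjusted p = 0.0357), and Arhgap30 by 0.83 ± 0.11 (adjusted p = 0.0256). Slco4a1, an organic anion transporter, rose by 1.11 ± 0.18 (adjusted p = 0.0343) and Nptx1, a neuronal pentraxin, by 0.89 ± 0.15 (adjusted p = 0.0372).

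Ndrg1, best known as a gene induced by low oxygen, rose by 1.07 ± 0.18 (adjusted p = 0.0414). It was at 6.58, 6.89 and 6.66 in ESC high and at 7.69, 7.81 and 7.84 in iPSC high, and its difference in low-potential cells was 0.30. The difference between those effects did not pass the test. Cth, which makes cysteine from cystathionine, was at 7.60, 7.51 and 7.28 in ESC high and at 8.08, 8.30 and 8.44 in iPSC high. All iPSC arrays were above all ESC arrays, and Cth rose by 0.81 ± 0.12 (adjusted p = 0.0325), beside 0.63 in low-potential cells. Defa22, an alpha-defensin, and Pramel11 rose by 1.18 ± 0.16 and 0.93 ± 0.15. Both were dim, at 2.63 or below in every high-potential array, both belong to families of near-identical copies, which leaves the copy uncertain, and both had the opposite sign in low-potential cells, at -0.22 and -0.21. The other called rises were Aldoc, described with glycolysis, and Sgk3 (0.72), Ypel2 (0.72) and Olfr38 (0.62), named after their values were seen.

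Cdc42se2, a small effector of the GTPase Cdc42, was the clearest fall outside both chromosomes, at 7.04, 7.05 and 6.88 in ESC high and at 6.13, 6.06 and 6.23 in iPSC high. It was lower in every iPSC array, by 0.85 on average (difference -0.85 ± 0.10, adjusted p = 0.0149), and the low-potential difference was -0.84. Epp13, an epididymal protein gene, differed by -1.14 ± 0.20 (adjusted p = 0.0414). Idi2, a relative of the isopentenyl diphosphate isomerase, differed by -0.92 ± 0.12 (adjusted p = 0.0256) and by -0.04 in low-potential cells. Rims2, of the presynaptic release zone, differed by -0.69 ± 0.12 (adjusted p = 0.0414). The fifth called fall is a probe set without a gene symbol, so its chromosome is not known here. Without iPSC low replicate 4 the count of called rises outside both chromosomes was 8 in place of 16, without ESC low replicate 3 the count of falls was 3 in place of 5, and without any 1 high-potential array there were 0 to 3 rises and 0 or 1 falls.

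Nearly all calls had the same sign in low-potential cells. Of the 47, 45 did, and 29 were also called there in the same direction, where 100 probe sets were called (0.397%). The exceptions in sign were Pramel11 and Defa22. Olfr38 and Idi2 count among the 45, yet their low-potential differences were only 0.01 and -0.04 (adjusted p of limma 0.984 and 0.945). The share of equal signs over all probe sets was not counted, so 45 of 47 has no reference here. The chromosomes with the shift had medians below 0 in both fractions, so equal signs of the falls there add little. The low- and high-potential comparisons take their differences from separate arrays, but both use 1 spread per probe set, estimated from all 12 arrays. ESC high and ESC low arrays of equal number also correlated at 0.34, 0.23 and 0.28 in their deviations from the group means. For iPSC arrays these values were 0.11, 0.13 and 0.21. The comparisons are therefore not fully independent. The test of the difference between the comparisons called 0 probe sets with limma, and 1100 (4.36%) had an unadjusted p under 0.05. The lowest adjusted p was 0.895, so no gene can be called particular to the high-potential cells.

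**Figure D5:**
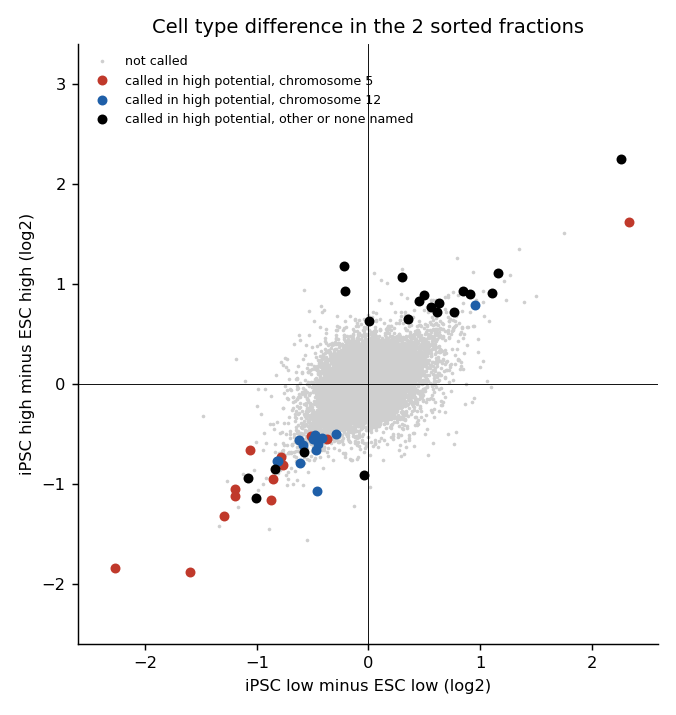
Difference between iPSC and ESC in low-potential cells (log2, horizontal axis) against that in high-potential cells (log2, vertical axis) for all probe sets, with the 47 called in high-potential cells coloured by chromosome and the rest in grey. All called points but Pramel11 and Defa22 lie in the quadrants of equal sign, with Olfr38 and Idi2 at only 0.01 and -0.04 on the horizontal axis.

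Gene groups are given next by their counts and medians beside the median of all probe sets, which was 0.01, or 0.02 outside chromosomes 5 and 12. Lists were drawn up with earlier results of these data known. In such bulk samples, fewer cells of a type and less RNA per cell cannot be told apart.

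Of the 22 measured pluripotency factors 0 were called higher and 0 lower, with a median of 0.07. The 3 on chromosomes 5 and 12 were all below 0, among them Esrrb of chromosome 12, a nuclear receptor of the naive network, at 7.68 ± 0.08 and 7.45 ± 0.06 and a difference of -0.24 ± 0.09 (adjusted p = 0.384). Zfp42 differed by 0.12 ± 0.11 and Klf4 by 0.20 ± 0.14. Formative and primed markers (13), endoderm (18), trophoblast (16), mesoderm (18) and neural (17) genes also had 0 calls, with medians of -0.02, 0.10, 0.16, 0.08 and 0.03. The 23 fibroblast and somatic genes had a median of 0.05 and the 10 blood and macrophage genes 0.08, again with 0 calls. The summed log2 level of the fibroblast list was 85.1 to 89.5 in ESC high and 88.9 to 89.8 in iPSC high. Col1a1, the chain of type I collagen that fibroblasts make in quantity, was at 3.76 ± 0.09 and 3.64 ± 0.11, close to the median of all probe sets. The 13 genes of the 2-cell-like state had a median of -0.04 and 0 calls.

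Y-linked genes were dim in both groups, which carry the label of female cells. The 7 Y-linked genes lay between 1.26 and 2.61 in ESC high and between 1.31 and 2.85 in iPSC high, all under the median level of the arrays. Xist, the RNA that coats the inactive X, was at 3.68 ± 0.28 and 3.58 ± 0.15, close to the median of all probe sets. These levels do not show how many X chromosomes the cells held. The 17 genes of X inactivation and dosage had a median of -0.00 and 0 calls.

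Imprinted genes were examined because the Dlk1-Dio3 domain, on chromosome 12, is silenced in some mouse iPSC lines. Its maternal transcript Meg3 was at 8.79 ± 0.09 in ESC high and 8.55 ± 0.16 in iPSC high, and its partner Rian at 8.89 ± 0.09 and 8.52 ± 0.12. Both transcripts were bright in both cell types, and their differences of -0.24 ± 0.12 (adjusted p = 0.593) and -0.37 ± 0.10 (adjusted p = 0.155) stood near the chromosome 12 median of -0.29. Of the 10 measured genes of the domain 8 were below 0, 0 were called, and the median was -0.20. In 4 of them the iPSC arrays lay entirely below the ESC arrays. This held for 267 of the 887 probe sets of chromosome 12 and for 7.59% of all probe sets. The 42 other imprinted genes had a median of 0.01 and 0 calls.

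Genes that place or remove DNA methylation gave no call, with a median of -0.02 over 22. Tet3, which oxidises methylated cytosine, came closest at 0.84 ± 0.15 (adjusted p = 0.0511), and in low-potential cells it was called higher, at 1.23 (adjusted p = 0.00741). Dnmt3l, the cofactor of the de novo methyltransferases, was at 3.84, 4.17 and 4.88 in ESC high and at 6.27, 4.85 and 6.29 in iPSC high. ESC high replicate 4 overlapped the lowest iPSC array, and the difference of 1.51 ± 0.44 did not pass (adjusted p = 0.217). Dnmt3a, on chromosome 12, differed by -0.54 ± 0.14 (adjusted p = 0.155). The 25 germ-line-linked genes, which methylation normally holds silent, had a median of 0.07 and 0 calls, and Dppa3 differed by -1.23 (adjusted p = 0.106).

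The oligoadenylate synthetases of chromosome 5 are enzymes that start the decay of viral RNA, and 0 of them were called. Oas1a was at 4.99, 5.59 and 4.99 in ESC high and at 6.08, 6.28 and 6.57 in iPSC high. All iPSC arrays were above all ESC arrays, yet the difference of 1.12 ± 0.20 narrowly missed the threshold (adjusted p = 0.0526). Oas1g differed by 0.86 (adjusted p = 0.0794), Oas1d by 0.63 and Oasl2 by 0.33. The Oas1 copies are near-identical and their probe sets can share signal. Of the 11 interferon-stimulated genes on chromosomes 5 and 12, 10 were above 0 with a median of 0.30. Over all 36 interferon-stimulated genes the median was 0.12, 9 had non-overlapping arrays higher in iPSC (8.16% of all probe sets did), and 0 were called. The summed log2 level of this list was 135 to 136 in the ESC high arrays and 141 to 146 in the iPSC high arrays.

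Of the lists of mitochondrial energy metabolism, which do not hold the called genes Coq2, Guf1 and Glrx5, 0 members were called. The 34 genes of complex I had a median of 0.01, the 38 of complexes II to V with cytochrome c 0.02, the 23 of the citric acid cycle 0.05, the 54 of the mitochondrial ribosome -0.04 and the 19 of mitochondrial carriers and uncoupling 0.01. On chromosomes 5 and 12, Atp5k and Cox6a1, of ATP synthase and cytochrome oxidase, differed by -0.41 and -0.22, and the 3 citric acid cycle genes there had a median of -0.23. Dld, the shared dihydrolipoamide dehydrogenase of chromosome 12, differed by -0.50 (adjusted p = 0.146) and was called lower in low-potential cells, at -0.70 (adjusted p = 0.039). Mrps17, a chromosome 5 protein of the mitochondrial ribosome, differed by -0.86 (adjusted p = 0.054). Nnt, the proton-driven transhydrogenase, differed by -0.03 ± 0.15.

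Glycolysis had 1 call among 21 genes. Aldoc, an aldolase, was at 7.53, 7.56 and 7.39 in ESC high and at 7.96, 8.20 and 8.26 in iPSC high. The groups did not overlap, and it rose by 0.65 ± 0.11 (adjusted p = 0.0487), beside 0.36 in low-potential cells. The list's median was 0.14 in high-potential and -0.00 in low-potential cells, and 8 of its genes had non-overlapping arrays higher in iPSC high, as did 8.16% of all probe sets. Hk2 differed by 0.23 ± 0.09, Slc2a1 by 0.12 ± 0.10 and Ldha by -0.01 ± 0.11, with none called. A list of 26 genes induced by low oxygen, which was added after values were seen, had a median of 0.10 and 2 calls, Ndrg1 and Aldoc. The 22 genes of serine, one-carbon and ATF4-driven metabolism had a median of 0.19 and 1 call, Cth. The 20 genes of cholesterol synthesis had a median of 0.11, and the 12 ABC efflux pumps, some of which can export TMRM, had 0.09, with 0 calls in either.

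Genes of G1 and S phase had a median of -0.12 over 21, or -0.09 outside chromosomes 5 and 12, with 0 calls. The 5 members on those chromosomes were all below 0, with a median of -0.34: Rrm2, of ribonucleotide reductase, was at -0.50 (adjusted p = 0.0721), and Ung, Tyms, Slbp and Mcm7 were at -0.52, -0.34, -0.30 and -0.26. The 24 genes of G2 and mitosis had a median of 0.06 and the 20 p53 targets 0.04. The 27 genes of LIF, STAT3 and ERK feedback had a median of 0.19 and the 14 WNT targets -0.08, all without a call.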

How the data were processed

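The deposited table holds log2 expression values of 12 arrays, made by the authors from Affymetrix arrays hybridised with biotin-labelled RNA. RMA, affy 1.36.1 and R 2.15.1 are listed in the submitters' processing notes. For the chip definition and genome build, the sources used here give none. Of 25206 probe sets, 23185 had 1 gene symbol in the platform annotation, 0 had several and 2021 had none, and each of the 23185 matched by gene number a RefSeq gene table (GRCm38.p6), used for chromosomes and gene order.

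Tests were run with limma 3.58.1 in R 4.3.3: 1 mean per group over all 12 arrays, without block or filter, Benjamini-Hochberg adjustment over all probe sets and a threshold of 0.05. Numbers of ESC and iPSC arrays do not pair: same-numbered high arrays correlated at -0.09, -0.04 and -0.04. Members and gene lists were chosen with earlier results of these data known. Genes named were the 12 largest called rises and falls outside chromosomes 5 and 12, and 6 per direction on each of those. For these, the 3 arrays of each group also had to be free of overlap, which held for all 47 called probe sets. Up to 4 members per list with the lowest p and a preset list of markers were named too. Predicted and clone-named genes were left out, with the exceptions said in the text. Chromosome medians used genes whose mean over the 12 arrays exceeded the median of all probe sets (3.56). Motifs were counted as the letters CG in RefSeq windows. Plots used matplotlib 3.10.9 (Python 3.11.15).

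On simulated data with independent noise, changes of 0.5, 1 and 2 (log2) were recovered in 37.3%, 80.6% and 97.0% of changed probe sets above the median level. In the same simulation 5 unchanged probe sets were called. Fits over the 6 high arrays alone, with a replicate block, a variance trend, other scalings, a level filter and each array left out were alternatives.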

Additional observations from a re-analysis of the deposited data

How the results depend on the processing

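The medians of chromosomes 5 and 12 stayed below 0 in all settings run, but many settings could not move them. Fits of the high arrays alone, the variance trend, the level filter and both replicate blocks left them at -0.25 and -0.29. Leaving out a low-potential array did the same. Centring takes the same amount from every gene of an array. The informative settings were therefore the repeated quantile normalization and leaving out a high-potential array. The chromosome 12 median was -0.32 with arrays centred on their medians and -0.33 with centring outside both chromosomes, and over all named genes whatever their level, a setting added after seeing the data, the medians were -0.12 and -0.13. With one array left out the chromosome 5 median ranged from -0.28 to -0.19 and that of chromosome 12 from -0.32 to -0.27.

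Counts of calls moved far more, given here as higher, lower, lower on chromosome 5, lower on chromosome 12, and higher and lower outside both. Probe sets without a chromosome are counted as outside both. A variance trend with intensity gave 41, 100, 45, 41, 38 and 14, and only probe sets above the median level gave 43, 105, 39, 43, 40 and 23. The 6 high arrays alone gave 0, 1, 1, 0, 0 and 0, with fewer samples behind the spread. The fixed replicate block over those 6 arrays also gave 0, 1, 1, 0, 0 and 0, though the numbers do not pair the cell types. The random replicate block within cell type gave 8 lower outside, and median centring gave 10. Centring outside both chromosomes gave 53 lower, of which 21, 20 and 12 on chromosome 5, chromosome 12 and elsewhere. The cause of these differences was not tested. With one array left out the 6 counts ranged from 0 to 20, 1 to 28, 1 to 13, 0 to 11, 0 to 18 and 0 to 4. The difference between fractions had 0 calls in every limma setting that included the low-potential arrays. In the main limma fit, 1100 probe sets had an unadjusted p under 0.05 for it. Values of dim probe sets have no detection call, which limits what can be said of Defa22, Pramel11, Olfr38, Idi2 and 2610524H06Rik. Their mean levels lay under the median of all probe sets.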
